A study of Mus musculus with 2 samples.

Results

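Imprinted genes are genes expressed mainly from the copy inherited from 1 parent. Open chromatin at 34 listed imprinted genes was examined in the newborn mouse stomach with DNase-seq. The method sequences the ends that DNase I, an endonuclease, leaves where it cuts accessible DNA. The 34 genes were taken by symbol from the GENCODE M21 annotation, lncRNA genes included, and stand among 32011 protein-coding and lncRNA genes. All 34 were annotated, 27 as protein-coding and 7 as lncRNA genes, and they fall into 18 clusters. By the parental copy usually given for each gene, 10 are maternally and 24 paternally expressed. The tissue was whole stomach of the inbred mouse strain B6NCrl at 0 days after birth, without treatment, and the single group held 2 biological replicates of 1 library each. Both libraries carry the same donor label, sex was not collected, and nothing states whether separate animals or pools were used, so the spread between replicates may be technical.

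Each replicate has its own list of peaks (at most 150 bp wide) and of hotspots, stretches of raised cutting, on mouse build mm10. A hotspot can be wider or narrower than a peak. Replicate 1 had 139374 peaks on the autosomes, X and Y, and replicate 2 had 152779. A region below means peaks of both replicates that overlap by at least 1 bp, joined, and there were 105543 of these. The number of reads behind the lists is unknown, so weak sites may be missed. Peak signal is the authors' value without a stated scale, and it is used only to rank peaks within a list, where percentile 100 is the strongest. Of 12 stomach markers 11 had a region within 1 kb of a start, and Barx1, a regulator of stomach mesenchyme, had a peak in replicate 1 alone. Of all protein-coding genes 66.4% had such a region. Markers of other tissues with such a region were 0 of 3 for liver, 0 of 3 for pancreas, 1 of 3 for intestine (Fabp2) and 2 of 3 for brain (Gfap and Slc17a7), and the part of other tissues in the results was not tested. In bulk tissue a site open in few cells cannot be told apart from one weakly open in many.

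Imprinting rests on DNA methylation set in egg or sperm at imprinting control regions, which stays on 1 parental copy in the body's cells. At the H19-Igf2 cluster the insulator protein CTCF binds the unmethylated maternal control region and keeps distant enhancers from Igf2, while H19 is transcribed. At most other clusters the methylated copy is the maternal one and a paternal promoter or lncRNA starts inside the control region, and the zinc finger protein ZFP57 protects the methylated copy by binding a methylated hexamer. DNase peaks of an inbred strain do not tell the parental copies apart, so each value below is the sum of both copies.

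The control region upstream of H19 showed accessible sites that hold CTCF strings. The core string of the CTCF motif was searched on both strands. In the H19 locus, meaning the gene plus 10 kb beyond each end, there were 4 matches. H19 itself occupies 142575529 to 142578143 on the minus strand of chromosome 7 in mm10. Regions of both replicates covered 3 of the 4. The 3 regions and the 150 bp around the fourth match, which had neither a peak nor a hotspot in either replicate, are printed on the minus strand, along H19, with the matches in capitals. They are shown because the string sits inside each accessible site and has the same orientation in all 4.
H19 upstream 1, chr7:142580276-142580425: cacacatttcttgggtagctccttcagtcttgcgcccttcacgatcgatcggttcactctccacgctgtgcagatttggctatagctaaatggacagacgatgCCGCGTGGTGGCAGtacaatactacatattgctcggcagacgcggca
H19 upstream 2, chr7:142580676-142580825: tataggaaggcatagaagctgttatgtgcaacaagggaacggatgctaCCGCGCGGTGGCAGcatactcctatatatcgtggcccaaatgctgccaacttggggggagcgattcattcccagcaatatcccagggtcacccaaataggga
H19 upstream 3, chr7:142581716-142581885: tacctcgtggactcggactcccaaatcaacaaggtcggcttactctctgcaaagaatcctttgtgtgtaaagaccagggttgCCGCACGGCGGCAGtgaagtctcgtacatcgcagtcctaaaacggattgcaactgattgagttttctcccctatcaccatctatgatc
H19 upstream, outside peaks, chr7:142581966-142582115: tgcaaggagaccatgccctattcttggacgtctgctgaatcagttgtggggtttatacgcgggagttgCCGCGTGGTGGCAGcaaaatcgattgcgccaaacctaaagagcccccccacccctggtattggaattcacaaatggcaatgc

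The matches lay at -2173, -2628, -3654 and -3898 bp from the H19 start, negative values being upstream. Signals of the 3 regions were 45, 42 and 50 in replicate 1 and 58, 61 and 69 in replicate 2, which is between percentiles 47.2 and 71.9 of the peak lists. The 3 sites were thus of middle rank in both libraries. Of all 105543 regions 1.51% held a match, against 6 of the 178 regions in the loci of the 34 genes. Of the other 3, 1 lay at the Commd1 promoter next to Zrsr1, 1 near Magel2 and 1 near Trappc9. A match is a description of the sequence, and binding was not measured.

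Accessible sites in the first intron of Peg3 carried repeated YY1 strings, all in 1 direction. Peg3, a zinc finger protein gene of the paternal copy, lies at chromosome 7, 6703892 to 6730431, on the minus strand. The string AAGATGGCG of the zinc finger protein YY1 had 11 matches in the Peg3 locus, searched on both strands, and all 11 read forward on the plus strand. Of these, 10 lay from 838 to 3126 bp downstream of the Peg3 start, within the intron, and 5 of them fell in regions of both replicates. The 3 regions that hold them are printed on the plus strand, with matches in capitals, because 2 of them hold 2 matches each.
Peg3 1, chr7:6727816-6727985: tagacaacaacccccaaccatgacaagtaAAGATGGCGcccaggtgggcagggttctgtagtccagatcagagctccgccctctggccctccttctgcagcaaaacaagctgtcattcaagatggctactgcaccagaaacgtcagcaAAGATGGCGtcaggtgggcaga
Peg3 2, chr7:6728336-6728585: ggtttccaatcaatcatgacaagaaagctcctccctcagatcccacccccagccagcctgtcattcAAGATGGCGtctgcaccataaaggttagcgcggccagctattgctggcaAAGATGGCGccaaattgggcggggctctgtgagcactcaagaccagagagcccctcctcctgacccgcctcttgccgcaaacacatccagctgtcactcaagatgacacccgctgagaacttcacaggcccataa
Peg3 3, chr7:6729496-6729645: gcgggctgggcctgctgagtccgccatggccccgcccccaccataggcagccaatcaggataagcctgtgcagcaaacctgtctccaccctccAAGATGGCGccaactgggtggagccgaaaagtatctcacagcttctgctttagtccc

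These were among the stronger sites of both libraries, with signals of 94, 94 and 82 in replicate 1 and 99, 112 and 96 in replicate 2. Over all regions 0.438% held the YY1 string and 0.0161%, or 17 regions, held it more than once. Apart from the Peg3 intron, 1 of the 178 member regions had a match, at Inpp5f. Hotspots of both replicates covered 9 of the 10 intron matches, and the one farthest from the Peg3 start lay in a hotspot of replicate 1 alone.

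**Figure D1:**
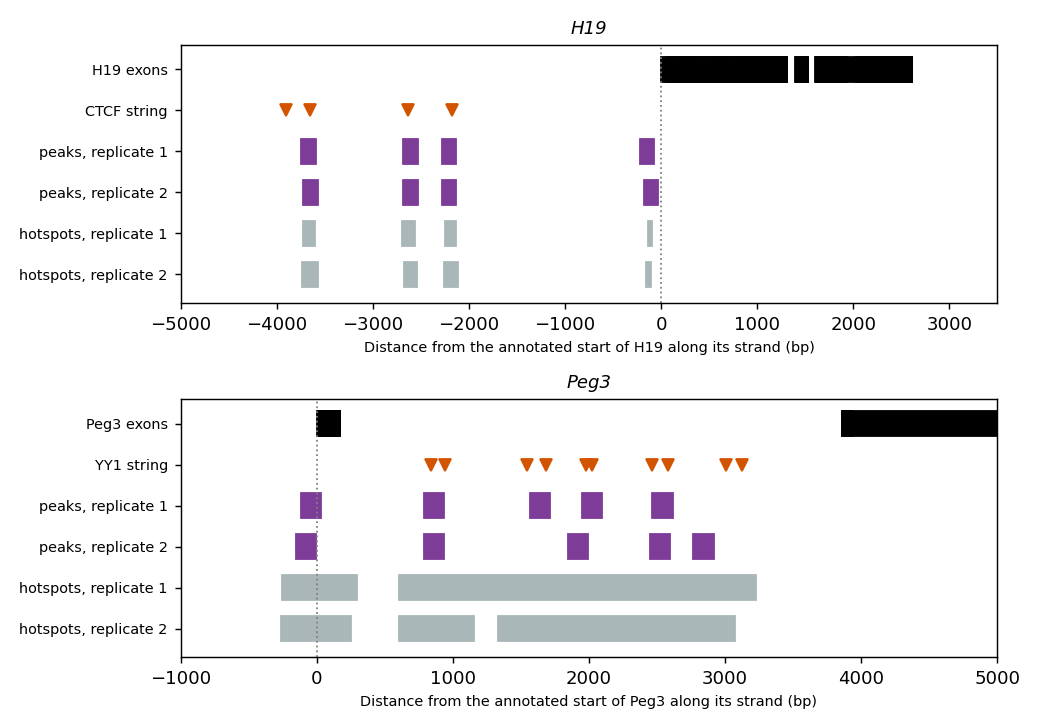
Peaks (purple) and hotspots (grey) of each replicate around H19 and Peg3, with distance from the annotated gene start along its strand in bp on the x axis, exons of all annotated transcripts in black and string matches as triangles. At H19 the peaks of both replicates sit on 3 of the 4 CTCF strings, and at Peg3 hotspots of both replicates cover 9 of the 10 YY1 strings in the first intron.

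The ZFP57 hexamer TGCCGC, searched on both strands, was in 19 of the 178 member regions, or 10.7%, against 5.83% of all regions. Near starts the shares were 10 of 65, or 15.4%, for regions within 1 kb of a member start and 11.5% for regions within 1 kb of any start. More than 1 match was found in 5 member regions, or 2.81%, against 0.485% of all regions. Near starts these shares were 4.62% for members and 1.23% for any gene. The hexamer holds a CpG, and the shares were not matched for CpG content. Here and for YY1, a match describes the sequence alone, and binding was not measured. The 5 regions were at Peg13, Snrpn and the inner start of Inpp5f and in H19 upstream 1 and 3. In H19 upstream 3 both hexamer matches overlap the CTCF string printed above, and in H19 upstream 1 it is 1 of the 2. These 2 regions are thus not separate from the CTCF sites. The first 3 of the 5 regions are shown, on the plus strand, with the hexamer or its reverse complement in capitals. For Snrpn and Inpp5f, whose regions overlap exons, 30 bases around each match in the region are given. The Snrpn locus held 12 matches in all, and only the 2 shown lay in a region. The others, most of them close to that region, had neither a peak nor a hotspot in either replicate.
Peg13 region, chr15:72809956-72810125: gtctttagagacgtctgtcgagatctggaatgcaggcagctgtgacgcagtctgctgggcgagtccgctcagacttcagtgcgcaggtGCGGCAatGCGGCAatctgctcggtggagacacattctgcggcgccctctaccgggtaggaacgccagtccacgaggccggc
Snrpn site 1, chr7:60005108-60005137: ctgcgctagtctTGCCGCaatggctcaggt
Snrpn site 2, chr7:60005184-60005213: tgcgcacattttTGCCGCaatgcaggggtc
Inpp5f site 1, chr7:128688405-128688434: gcagtggcagccTGCCGCagcggaagtggg
Inpp5f site 2, chr7:128688487-128688516: gtagacagaggaTGCCGCgctcccatcggc

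Most members had open chromatin at a start. A region lay within 1 kb of any annotated start, called an open promoter here, at 27 of 34 members, or 79.4%. By the same rule 66.4% of all protein-coding genes and 31.1% of all lncRNA genes were open, or 55.2% together, against 22 of 27 protein-coding and 5 of 7 lncRNA members. Maternally expressed members were open at 8 of 10 and paternally expressed ones at 19 of 24, shares of 80 and 79.2%. By class the counts differed: protein-coding members were open at 6 of 6 maternally and 16 of 21 paternally expressed genes, and lncRNA members at 2 of 4 and 3 of 3. From general knowledge of mouse imprinting, not from these data, 6 genes were taken to have an expressed copy that depends on transcript or tissue. Without them the counts were 3 of 5 and 18 of 23, or 60 and 78.3%. Genes are not replicates, so these shares carry no test. Taken alone, replicate 1 had a promoter peak at 28 members, against 68.2% of protein-coding, 33.8% of lncRNA and 57.3% of all genes. Replicate 2 had one at 29, against 69.4%, 35.9% and 58.8%. Members had a median of 5 annotated starts, and all genes a median of 2, so more windows were searched per member. With the start of the annotated gene alone the count was 21, or 61.8%, against 51.5% of all genes. By that rule protein-coding members were open at 16 of 27, or 59.3%, which is no higher than the 61.6% of all protein-coding genes, and lncRNA members at 5 of 7 against 29.7%. The members lost were Grb10, Igf2, Mest, Nnat, Plagl1 and Snrpn, whose open start lies inside the gene.

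The promoters of open members ranked lower in signal than those of most open protein-coding genes. For each gene the strongest promoter region was taken by its mean rank in both lists. Its median percentile was 80.9 over the 27 open members, 92.6 over open protein-coding genes and 83.8 over open lncRNA genes. The 22 open protein-coding members had 82.6, and 5 of the 27 lay above the 92.6 of open protein-coding genes. Peg3 and Usp29 have the same strongest promoter region, and so do Peg10 and Sgce, so the 27 values do not come from 27 separate sites. Between replicates, the rank of a member promoter region differed by a median of 5.65 percentile points over 65 regions, and for 1 in 10 of them by over 20.9. The gap between 80.9 and 92.6 was seen in each library, with medians of 83 against 92.2 in replicate 1 and 84 against 93.4 in replicate 2 for the strongest promoter peak.

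Much of the upper end of this order was formed by genes from the 6 taken to have an expressed copy that depends on transcript or tissue. These 6 are Gnas, Grb10, Igf2r, Inpp5f, Trappc9 and Ube3a, and their median percentile was 96.1, against 78.2 for the 21 other open members. Among those 21, Mcts2 alone lay above 92.6. Among the 6, Gnas at 87.7 and Grb10 at 60.6 lay below that value. Among maternally expressed members the median was 89.1 over 8, and without the dependent genes it was 78.2 over 3. Among paternally expressed members it was 78.7 over 19 and 77.7 over 18 by the same comparison.

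**Figure D2:**
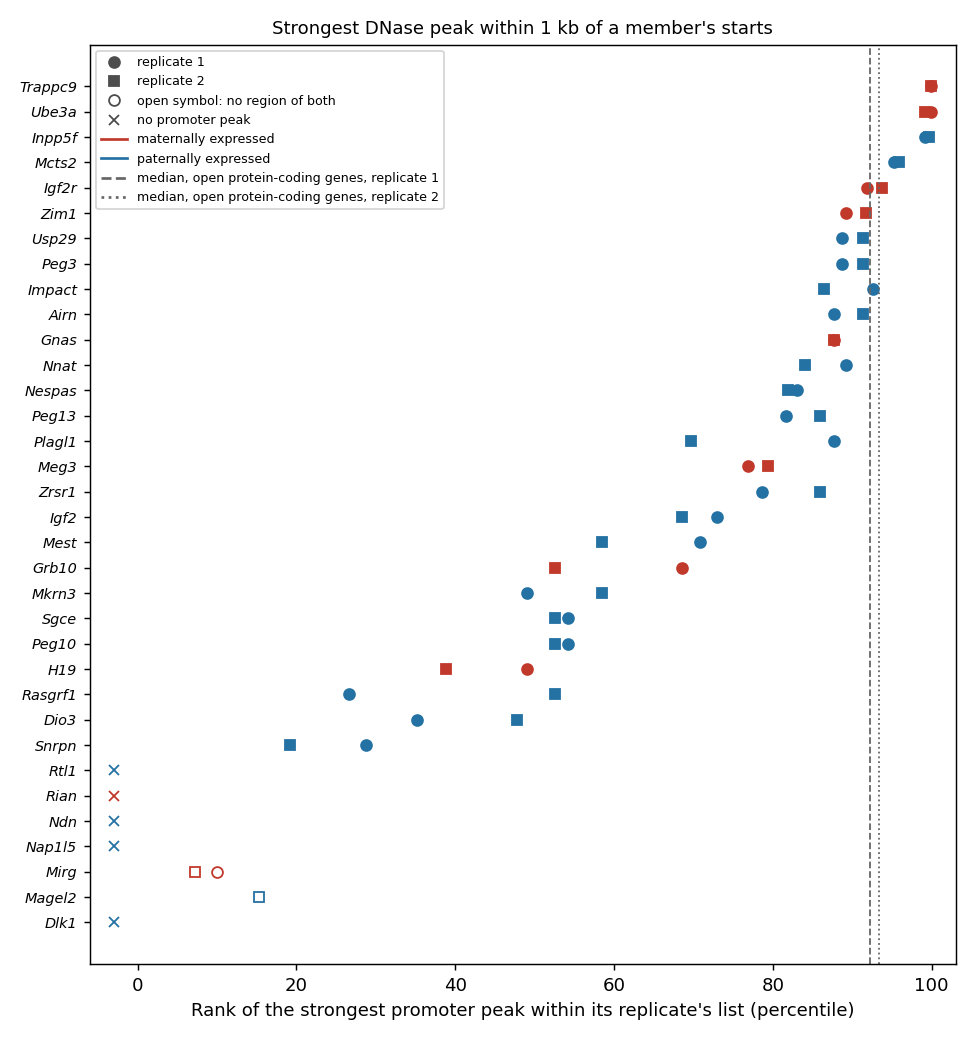
Rank percentile (x axis) of the strongest peak within 1 kb of any start of each member (y axis) in its own replicate's list, with red for maternally and blue for paternally expressed genes, and lines at the medians of open protein-coding genes by the same measure, dashed at 92.2 for replicate 1 and dotted at 93.4 for replicate 2. Trappc9, Ube3a and Inpp5f sit above percentile 99 in both replicates, Snrpn is the lowest open member by the mean of both, crosses mark members without a promoter peak, and a square may hide a circle where replicates coincide.

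Growth factors and their regulators differed in how their promoters were open. Igf2, the insulin-like growth factor of fetal growth (chromosome 7, 142650766 to 142666816), had 3 promoter regions. They lay at starts inside the annotated gene, with signals of 60, 52 and 53 in replicate 1 and 51, 66 and 61 in replicate 2. Starts of the antisense gene Igf2os lie within 1 kb of 2 of the 3. The outermost annotated start of Igf2 had no region within 1 kb.

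H19, the lncRNA next to Igf2, had 1 promoter region, of signal 43 and 46 in replicates 1 and 2. By mean percentile, 43.9, it was the fourth lowest open member, above Snrpn, Dio3 and Rasgrf1. In the hotspot column read as a −log10 q value, the H19 promoter stood at 1.6 and 1.63, the lowest of the open members in each replicate. A stronger region lay beyond its 3′ end (chr7:142570736-142570885), with 91 and 92, at percentiles 92.6 and 89.3. Together with the control region, the H19 locus held 5 regions in 22.6 kb.

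Igf2r encodes the receptor that clears IGF2 from the cell surface (chromosome 17, 12682406 to 12769664). Its outermost start had a region with signals of 65 and 90, and an inner annotated start had 2 more, the stronger with 89 and 102. Airn, the paternal lncRNA that starts inside Igf2r on the opposite strand and silences it, had 2 promoter regions, with 77 and 96 at its start and 80 and 90 at a site 786 bp upstream of it. This cluster had 28 peaks in replicate 1 and 42 in replicate 2. Of these, 24 in each replicate lay in its 23 regions, so that 85.7% of the former and 57.1% of the latter were shared.

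Grb10, an adaptor that restrains insulin and growth factor signalling, had 1 region 15 bp upstream of a start inside the annotated gene (44 and 49) and another 299 bp inside a start farther in (56 and 54). Their percentiles ran from 44.3 to 68.5. Its locus of 128 kb held 9 regions, 2 of them at promoters.

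Plagl1, a zinc finger factor that acts on growth genes, was open at a start inside the annotated gene, with signals of 80 and 67, and more weakly at another, with 46 and 59. Rasgrf1, an exchange factor for Ras proteins, had 1 weak promoter region, with 32 in replicate 1 and 54 in replicate 2. Of the 12 and 10 peaks at the Rasgrf1 locus 5 in each replicate were shared, or 41.7 and 50%, against 79.2 and 71.3% over the loci of all protein-coding and lncRNA genes.

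Gnas, which encodes the stimulatory G protein alpha subunit and uses alternative first exons of different parental origin (chromosome 2, 174284320 to 174346744), had the most promoter regions of any member. There were 9 over 16 annotated starts, and 14 in the locus. The weakest lay at the outermost start, with signals of 34 and 41, and the strongest near an inner start, with 80 and 89. Nespas, the paternal antisense lncRNA of this cluster, had a region on its start with signals of 72 and 80, and a weaker one inside, with 34 and 54.

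Sites in the Dlk1-Dio3 cluster on chromosome 12 were few. The cluster holds the paternal protein-coding genes Dlk1, Rtl1 and Dio3 and the maternal lncRNAs Meg3, Rian and Mirg. Its 6 loci had 13 peaks in replicate 1 and 19 in replicate 2, of which 8 in each were shared, or 61.5 and 42.1%. That gave 3.43 regions per 100 kb, against 7.14 over all member loci and 5.8 over all protein-coding and lncRNA loci.

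Meg3 (109541001 to 109571726) was open at its start with signals of 41 and 55, and had a stronger region inside the gene with 64 and 77. Dio3, which inactivates thyroid hormone, had 2 promoter regions with 36 and 32 in replicate 1 and 45 and 51 in replicate 2. Its start is also close to that of the antisense gene Dio3os.

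Dlk1, a membrane protein related to Notch ligands, had no promoter peak in either replicate at any of its 9 annotated starts, and its nearest region lay 6478 bp away, with 46 and 63. Rtl1, a gene derived from a retrotransposon, and Rian also had no promoter peak in either library. Mirg had 2 promoter peaks in replicate 1 and 1 in replicate 2, all at or below percentile 9.96 and none overlapping, so it does not count as open. The 1 region in the Rtl1 locus was among the weakest of replicate 2, at percentile 1.36, and stood at 11.2 in replicate 1.

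The Snrpn-Ube3a cluster on chromosome 7, which corresponds to the human region of Prader-Willi and Angelman syndromes, had 11 regions in 351 kb, the lowest density of the 18 clusters at 3.13 per 100 kb. Snrpn, a splicing protein gene whose inner start is part of the control region, was open there with signals of 33 and 36, the lowest open member by mean percentile, 24. Starts of Snurf and of the gene Gm38393 lie there too. The Snrpn locus of 178 kb held no other region. Its other annotated start lay 103657 bp from the nearest region.

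Mkrn3, a ubiquitin ligase gene, had 1 promoter region (43 and 58). Ndn, which encodes a growth-restraining MAGE family protein, had no promoter peak in either library, and a region 1607 bp inside the start with 34 and 52. Magel2, of the same family, had 2 weak promoter peaks in replicate 2 (25 and 34) and none in replicate 1, and a region 1065 bp upstream with 31 and 48, just outside the 1 kb limit. Ube3a, the ubiquitin ligase gene that is maternally expressed in neurons, stood apart from its neighbours. It had 4 promoter regions, and the strongest had signals of 127 and 123, above percentile 99 in both replicates.

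Imprinted genes that lie within or beside other genes could be compared with their hosts. Mcts2, a retrogene in an intron of H13, had 1 region on its start with 99 and 108, and the strongest promoter peaks of H13 had 88 and 94. Nap1l5, a retrogene inside Herc3, had no promoter peak in either replicate, while Herc3 had 4 promoter regions with up to 82 and 84. The single region of the Nap1l5 locus belonged to a Herc3 start.

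Zrsr1, a splicing factor retrogene inside Commd1, had 3 promoter regions, with 66, 62 and 47 in replicate 1 and 72, 76 and 86 in replicate 2. Annotated Commd1 starts lie within 1 kb of all 3, so they cannot be given to 1 gene. Nnat, a small membrane proteolipid gene in an intron of Blcap, had 1 region 267 bp from an inner start (83 and 83) and none within 1 kb of its 9 outer starts. Blcap starts carried 5 of the 7 regions in the Nnat locus, which had the highest density of all clusters at 31.2 per 100 kb.

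Peg13, a paternal lncRNA in an intron of Trappc9, had 3 promoter regions, the highest signals being 70 in replicate 1 and 86 in replicate 2. Trappc9, a subunit of a vesicle trafficking complex, had a start region with 128 and 133, above percentile 99 in both lists. Its locus held 28 regions, the most of the members, in 492 kb, and all 4 of the Peg13 locus are among these. Inpp5f, a phosphoinositide phosphatase gene, was open at its outer start with 117 and 128. At its inner start, the one with the ZFP57 hexamers printed above, the signals were 45 and 55, and this difference was larger than the spread between replicates.

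Peg3 and its neighbours Usp29 and Zim1 shared sites. Peg3 and Usp29, a gene of the deubiquitinase family, start head to head, and a region between them had 73 and 65. Of the 3 Peg3 promoter regions 2 also lie within 1 kb of a Usp29 start. Zim1, a maternally expressed zinc finger gene, had a strong region just upstream of its start with 83 and 97 and a weak one at an inner start with 29 and 39. The Usp29 locus of 257 kb held 16 regions, of which 5 belong to the Peg3 locus too.

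Peg10, another retrotransposon-derived gene, and Sgce, which encodes epsilon-sarcoglycan, also start head to head. The region between them had 46 and 54, and a stronger one with 94 and 94 lay 1770 bp inside Peg10. Replicate 1 had 9 peaks in this cluster and replicate 2 had 4, all 4 of them shared. Mest, of the hydrolase family, had regions 825 bp upstream of its inner starts (58 and 58) and at a start farther inside (27 and 24). Impact, a regulator of translation, had 5 promoter regions, the highest signals being 91 in replicate 1 and 87 in replicate 2.

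**Figure D3:**
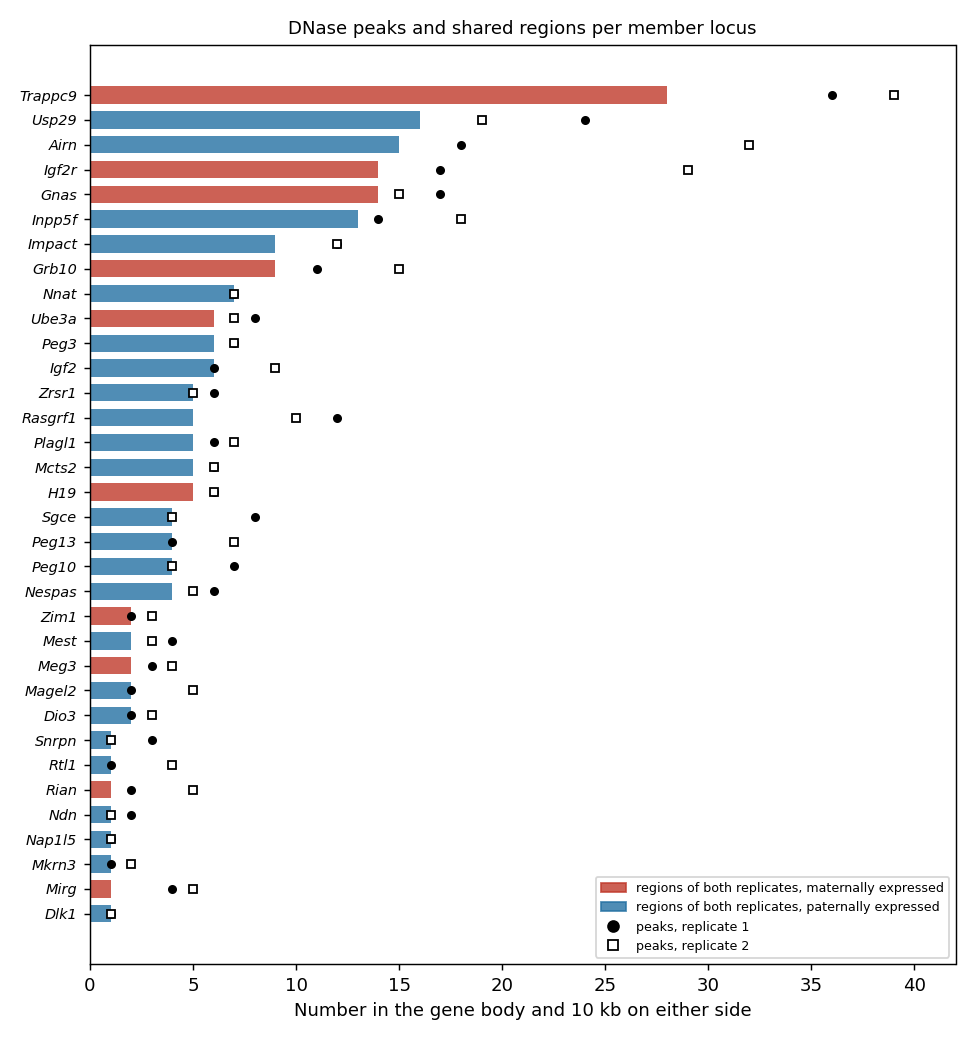
Number of regions of both replicates (bars, red maternally and blue paternally expressed) and of peaks in replicate 1 (dots) and replicate 2 (open squares) in the gene body and 10 kb on either side of each member. Trappc9 leads with 28 regions, 8 members have 1 region each, and a square may hide a dot where replicates coincide.

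Every member locus held at least 1 region, while 18% of protein-coding and 29.7% of lncRNA loci held none. The median was 4.5 regions per member locus, against 4 for protein-coding and 2 for lncRNA genes, and member loci had a median length of 45.1 kb against 37.4 and 26.1 kb. Per 100 kb the median was 6.63 for members, 7.9 for protein-coding and 4.69 for lncRNA genes. Maternally expressed members had a median of 5.5 regions over loci of 80.1 kb and paternally expressed members 4 over 33.7 kb. Without the 6 genes of dependent expression the order was the opposite, with 2 for maternally and 4 for paternally expressed members. Per 100 kb over all members the values were 5.77 for maternally and 8.6 for paternally expressed members. The 7 members without an open promoter had a median of 1 region.

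Counted once each, 178 regions lay in member loci, 24 of them in those of more than 1 member. Of the 178, 45.5% lay within 1 kb of a start of any gene, 41% in introns, 11.2% between genes and 2.25% in exons. Of all 105543 regions, 32681 lay within 1 kb of a start. Member loci are drawn around genes, which raises their share by construction. In replicate 1, 77.1% of 236 peaks were shared and in replicate 2, 70.7% of 256. Density varied over the 18 clusters from 3.13 per 100 kb at Snrpn-Ube3a to 31.2 at Nnat. Low values were also found at Dlk1-Dio3 (3.43), Rasgrf1 (3.65) and Peg10-Sgce (3.77), and high ones at Mcts2 (23.9), Zrsr1 (20.4) and H19-Igf2 (18.8). The 3 densest clusters covered 22.4, 20.9 and 24.5 kb, and the sparsest, Snrpn-Ube3a, 351 kb.

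**Figure D4:**
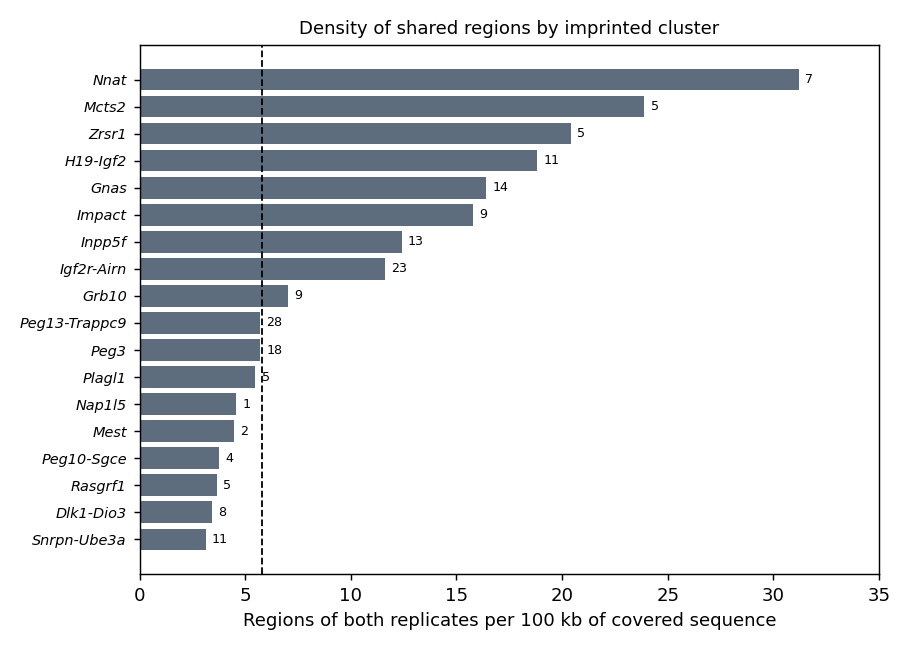
Regions of both replicates per 100 kb (x axis) in each imprinted cluster (y axis), with the number of regions beside each bar and the dashed line at 5.8, the value over all protein-coding and lncRNA loci. Nnat has the highest density at 31.2, and Snrpn-Ube3a, with 11 regions, the lowest at 3.13.

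CpG dinucleotides, the substrate of DNA methylation, were denser at open members. At the most CpG-rich start of each gene, the ratio of observed to expected CpG in 2 kb had a median of 0.735 over open members and 0.34 over the 7 others. Open protein-coding genes had 0.624 and the others 0.195. Members have more annotated starts, so their richest start was picked from more windows. At the gene start alone the median was 0.593 over open members and also 0.593 over open protein-coding genes. Over those not open it was 0.218 for members and 0.172 for protein-coding genes. Dlk1 and Nap1l5, with 0.709 and 0.651, were CpG-rich without a promoter peak, and H19, with 0.399, was open at a CpG-poor start.

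The genes around the members and those that keep imprints were taken from 2 further lists. Of 27 annotated host and neighbour genes 18 had an open promoter, against 66.4% of all protein-coding genes, so their share was near the background. Those without were Tfpi2, Slc22a2, Slc22a3, Zim2, Zim3, Snhg14, Nctc1, Ins2 and Kcnk9. Of 14 genes that set or keep imprints 13 were open, against the same 66.4%. Among them were Dnmt1, the maintenance DNA methyltransferase (109 and 111), Uhrf1, which recruits it (100 and 109), Trim28, the corepressor of zinc finger proteins (93 and 93), and Ctcf (102 and 118). Zfp57 itself had 1 promoter region, with 35 in replicate 1 and 61 in replicate 2, and Dnmt3l, a cofactor of methylation in germ cells, had no promoter peak in either replicate.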

How the data were processed

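DNase-seq peak and hotspot lists of 2 libraries of newborn mouse stomach were used. Each list derives from its own replicate's filtered alignments on mm10, per the file lists deposited with them. The authors' peak signal runs in whole numbers from 2 to 147 in replicate 1 and from 3 to 149 in replicate 2, with no scaling stated. For hotspots the deposited column read as a −log10 q value was at 100 in 38.9 and 39.4% of them. The sources used here do not name the aligner, caller or thresholds, and the depth is unknown. Peaks on other sequences than the 19 autosomes, X and Y were left out. Overlaps were computed in Python 3.11.15 with pandas 2.3.3 and tested on simulated intervals, also against bedtools 2.31.1. Genes and starts were those of GENCODE M21, without 41 repeated symbols, and sequences were read from GRCm38.p6 with pysam 0.24.0.

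All 34 members are named, with hosts, neighbours and genes that keep imprints by counts. The members, lists, strings and parental classes were chosen with earlier results of these data known. With 1 group, no test was made. Alternatives changed the window, the starts, the overlap, the peaks, the flank, the replicates and the parental classes. Those on promoter rank were chosen after seeing the data.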

Additional observations from a re-analysis of the deposited data

How the results depend on the processing

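Under the 8 alternatives the count of 27 open members ranged from 21 with the gene start alone to 31 with a 2.5 kb window. The wider window adds Magel2, Mirg, Ndn and Rian. With the gene start alone, protein-coding members no longer stood above all protein-coding genes (59.3 against 61.6%). With the stronger 50% of peaks it was 22, without Dio3, H19, Mkrn3, Rasgrf1 and Snrpn. From single replicates it ranged from 28 to 29, was 9 in each for maternally and ranged from 19 to 20 for paternally expressed members. The share over all genes was computed for single replicates and the gene start alone, so the counts under the other alternatives have no background. The 6 genes taken to have an expressed copy that depends on transcript or tissue were also left out. Then 3 of 5 maternally expressed members were open. The median number of regions was 2 for maternally and 4 for paternally expressed members.

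Counts per locus followed the alternatives by construction. The medians over all, maternally and paternally expressed members (4.5, 5.5 and 4) were 2.5, 4 and 2.5 over gene bodies alone, 9, 10 and 9 with 50 kb on either side, 1, 2.5 and 1 without promoter regions, and 2, 2 and 2 with the stronger 50% of peaks. With peaks covered to 50% by each other, and with hotspots, the first pair of medians were 4 and 4.5. From single replicates they ranged from 5.5 to 6, from 6.5 to 7 and from 5 to 6. Regions in member loci (178) were 271 with 50 kb, 97 without promoter regions and 101 with the stronger 50% of peaks, and from 236 to 256 in single replicates. The median percentile of the strongest promoter region (80.9) was 83 in replicate 1, 84 in replicate 2, 76.2 with a 250 bp window and 78.2 without the 6 dependent genes. No paired analysis was possible because there is 1 group. With unknown depth, members without a promoter peak may have weak sites that were not detectable.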
